A study of Mus musculus with 24 samples.

Results

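Chromatin remodelers outside the ISWI family were described here in RNA-seq data of mouse embryonic stem cells (mESCs) that each lack 1 ISWI accessory subunit. The set was a list of 48 genes for subunits of the SWI/SNF, CHD and NuRD, INO80, SRCAP, EP400 and related SNF2-family remodelers, listed by symbol, with no threshold on a measured value. All 48 were found among the 24594 genes counted, and 47 of the 15682 genes that passed a filter on low counts belong to the list. Actl6b, the neuronal counterpart of the actin-related subunit gene Actl6a, was the member left out, with 0 to 5 counts per library.

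The 24 libraries came from 129S6/SvEvTac mESCs grown in serum and LIF on gelatin, and each deletion line was made by CRISPR–Cas9 and is represented by 1 clone. Each line was compared with wild-type (WT) libraries of its own batch. Batch A held 2 libraries each of WT, Rsf1Δ and WstfΔ (Baz1b). Batch B held 2 each of WT and Tip5Δ (Baz2a), batch C 2 each of WT and BptfΔ, and batch E 2 each of WT and Acf1Δ (Baz1a). Batch D held 3 WT libraries and 3 labelled Cecr2Δ. Rsf1Δ and WstfΔ shared the WT libraries of batch A, so their comparisons are not independent. Nothing in the labels says whether replicates were separate cultures. The study's methods call them independent and its reporting summary calls them biological replicates, without naming separate cultures. The p-values measure only the spread between these libraries.

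Library totals ranged from 13417755 to 36721585 counts. mRNA of the targeted gene was lower in Rsf1Δ (log2 fold change -2.26), WstfΔ (-2.40), BptfΔ (-1.97) and Acf1Δ (-1.72). It was not called lower in Tip5Δ (Baz2a, -0.26, edgeR adjusted p = 0.0533), and Cecr2 was higher in the Cecr2Δ-labelled libraries (0.37), which are therefore named by their label. The study's methods name western blots and DNA sequencing as its checks of the clones, and mRNA level alone does not show whether protein is made. Pluripotent cell markers were present in all groups, with a sum over 8 genes of at least 3210 normalized counts-per-million (CPM) in every library. These markers moved with some lines, with 8 of 8 called higher in Rsf1Δ (median log2 fold change 0.34) and WstfΔ (0.63) and 5 of 8 in the Cecr2Δ-labelled libraries. They went both ways in BptfΔ (5 higher and 2 lower, log2 fold changes from -1.10 to 1.19) and in Acf1Δ (3 higher and 2 lower). The labels give poly(A) RNA for all libraries, yet in batch C the summed level of 65 replication-dependent histone genes, whose mRNAs lack a poly(A) tail, was 4606 to 6496 normalized CPM against 23.4 to 54.1 in the other 20 libraries. This sum was 6496 and 6442 in BptfΔ against 4715 and 4606 in WT, and 40.4 and 40.5 in WstfΔ against 24.3 and 23.5. It was also above WT in Tip5Δ and the Cecr2Δ-labelled libraries, and overlapped WT in Rsf1Δ and Acf1Δ. In the Acf1Δ pair and in WT replicates 1 and 2 of batch D, the counts differed from each other more than in the other replicate pairs.

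Remodelers use ATP hydrolysis to slide, evict or exchange nucleosomes. SWI/SNF (BAF) complexes are built around one of a pair of ATPases, BRG1 (Smarca4) or BRM (Smarca2), and differ in their ARID, BRD, DPF and PHF subunits, which define the canonical BAF, PBAF and noncanonical BAF forms. NuRD joins a CHD ATPase, chiefly CHD4 (Chd4), with histone deacetylases and MBD, MTA and GATAD2 proteins. In mESCs the predominant SWI/SNF form (esBAF) contains BRG1, and NuRD containing MBD3 is needed for cells to leave self-renewal normally.

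The SWI/SNF ATPase genes Smarca2 and Smarca4 and the BAF60 subunit gene Smarcd3 carried the clearest contrast in these data: Smarca2 and Smarcd3 were called in each of the 6 lines, and Smarca4 in 1. Their promoters are shown for that reason, as 300 bases around a RefSeq transcript start (250 before and 50 after, GRCm38.p6, printed in the direction of the gene). Capitals mark the GC box GGGCGG on either strand (CCGCCC on the other).
Smarca2, chr19:26604910-26605209, plus strand: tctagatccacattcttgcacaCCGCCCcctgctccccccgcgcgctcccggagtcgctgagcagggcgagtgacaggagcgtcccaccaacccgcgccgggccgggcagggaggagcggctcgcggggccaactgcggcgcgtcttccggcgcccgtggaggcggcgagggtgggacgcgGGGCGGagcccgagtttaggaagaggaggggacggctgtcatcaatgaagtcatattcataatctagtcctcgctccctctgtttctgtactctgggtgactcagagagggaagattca
Smarca4, chr9:21615919-21616218, plus strand: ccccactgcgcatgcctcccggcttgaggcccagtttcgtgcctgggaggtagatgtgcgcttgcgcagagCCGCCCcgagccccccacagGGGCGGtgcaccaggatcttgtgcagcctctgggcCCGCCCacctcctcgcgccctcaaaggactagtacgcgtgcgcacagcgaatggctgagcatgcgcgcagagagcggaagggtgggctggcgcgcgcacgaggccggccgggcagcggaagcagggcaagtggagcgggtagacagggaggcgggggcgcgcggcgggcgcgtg
Smarcd3, chr5:24601953-24602252, minus strand: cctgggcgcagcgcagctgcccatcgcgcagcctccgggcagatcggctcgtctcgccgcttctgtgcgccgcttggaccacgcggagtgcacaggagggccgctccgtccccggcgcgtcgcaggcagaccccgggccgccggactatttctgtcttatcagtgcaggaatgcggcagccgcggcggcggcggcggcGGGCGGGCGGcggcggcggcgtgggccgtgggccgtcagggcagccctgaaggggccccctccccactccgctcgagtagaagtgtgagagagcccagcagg

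Smarca2 held 2 GC boxes, Smarca4 held 3 and Smarcd3 held 2 that overlap each other. At least 1 GC box was present in 35.7% of the 32851 RefSeq promoters of this length. The promoters contained 29 CpG dinucleotides in Smarca2, 33 in Smarca4 and 40 in Smarcd3, against a median of 7 over all promoters and of 29 over 45 promoters found for 37 of the 48 members. The letters AGATAA (a motif of Gata4 and Gata6), found in 11.2% of all promoters, and ACAATG (a motif of Sox factors), found in 12.6%, were searched on both strands and matched none of the 3. The promoter of the subunit gene Dpf3, searched too but not printed, held 1 match to ACAATG on the opposite strand and 1 GC box. The Smarcd3 start in this table lies inside the annotated gene, on chromosome 5 from 24592622 to 24624456. These matches describe letters only.

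The first question was how much of each remodeler gene WT mESCs express. Levels between genes were compared as normalized CPM per kilobase of the gene width given in the deposited table, over 11 WT libraries. Chd4 had the highest mean at 103 ± 16.9 (SD, n = 11), followed by Hells (93.1), a SNF2-family ATPase linked to DNA methylation, Actl6a (84.4) and Mbd3 (68.4). Smarca4 was at 58.4 ± 4.30 (SD, n = 11) and the scaffold subunit gene Smarcc1 at 54.6 ± 6.82. A mean of at least 10 was reached by 30 of 48 members and 3 were under 1, namely Smarca2 (0.84 ± 0.37), Dpf3 (0.065 ± 0.040) and Actl6b (0.030 ± 0.023). Of the 47 neighbours in this order, 45 overlapped in their ranges over libraries and 2 did not, so only the coarse order can be read.

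**Figure D1:**
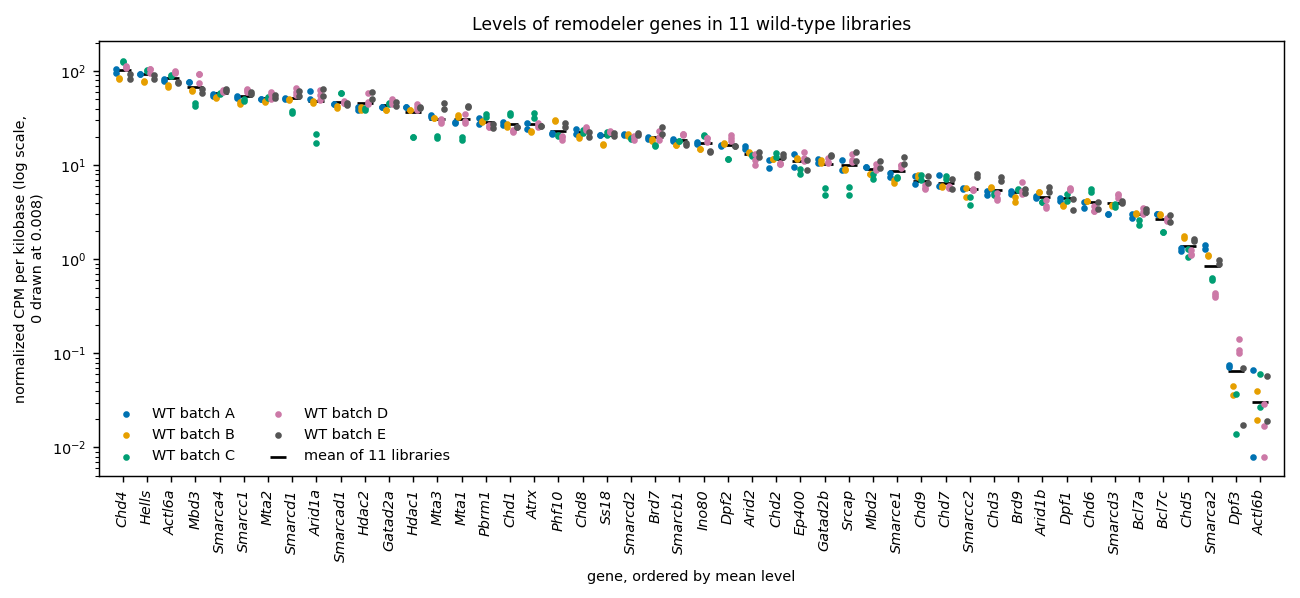
Levels of the 48 remodeler genes in 11 WT libraries, as normalized CPM per kilobase on a log axis (values of 0 are drawn at 0.008). Points are libraries coloured by batch and the black bars are means; Chd4 leads at 103 and Smarca2, Dpf3 and Actl6b are the 3 genes with a mean under 1.

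In each family of alternative subunits 1 gene supplied most or the largest share of the summed level. Smarca4 made up 98.5% of the ATPase pair and Smarca2 1.45%. Smarcc1 (BAF155) accounted for 90.7% of the Smarcc genes and Arid1a for 90.4% of the Arid1 pair. Among BAF60 genes, Smarcd1 held 67.8%, Smarcd2 27.0% and Smarcd3 5.19%. In NuRD, Chd4 held 93.6% of the Chd3, Chd4 and Chd5 sum, and Mbd3 87.9% of the MBD pair. The lead was less marked for Phf10 (52.7% of the BAF45 genes), Hdac2 (55.6% of the Hdac pair) and Mta2 (46.4% of the Mta genes). Hdac2 was the higher of its pair in 17 of 24 libraries, and Hdac1 led on average in WT of batch A (51.0% against 49.0%), Rsf1Δ, Tip5Δ and Acf1Δ. Phf10 led in 21 of 24 libraries, and Bcl7a led Bcl7c in 18 of 24. By the mean over WT libraries, the leading gene was the same without division by gene width, with library-size scaling alone and without batch C, in all 14 families.

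WT cells of the 5 batches were not alike in these genes. In a test over the batch terms, 44 of 47 members differed (edgeR adjusted p under 0.01), against 73.1% of all genes tested. Batch means differed by more than 2-fold in 8 of the tested members. Arid1a, the main ARID subunit gene of canonical BAF, was at 223 normalized CPM in WT of batch C and between 537 and 681 in the other batches. Smarca2 varied 3.26-fold between WT batches, which is wider than its change in some lines, so each line is read only against its own WT.

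Each line was then compared with its WT to ask how expression of other remodelers differed. Because each line is 1 clone, an effect of the deletion cannot be told apart from an effect of the clone. In the 282 comparisons (47 members in 6 lines), 274 log2 fold changes lay within 2-fold, 84 passed an edgeR adjusted p of 0.01 and 7 passed both limits. Of the 84 calls 34 were higher and 50 lower. All 7 calls past 2-fold were in 3 genes, with Smarca2 lower in 5 lines and Smarcd3 and Dpf3 higher in BptfΔ. By line these were 1 of 47 in Rsf1Δ, WstfΔ, Tip5Δ and the Cecr2Δ-labelled libraries and 3 in BptfΔ, against 5.91%, 10.4%, 2.72%, 3.11% and 13.8% of all genes. In Acf1Δ 0 members passed both limits with edgeR, also at an unadjusted p under 0.05 and with DESeq2, against 4.45%. Dpf3 in Rsf1Δ was the 1 comparison past 2-fold without a call (log2 fold change 1.05). Because most groups held 2 libraries, each call was repeated without each library of its comparison, and 39 of 84 held every time. Except in batch D this leaves a group of 1 library, which the fit assumes to vary like the other groups, so such a call rests partly on spread measured elsewhere.

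**Figure D2:**
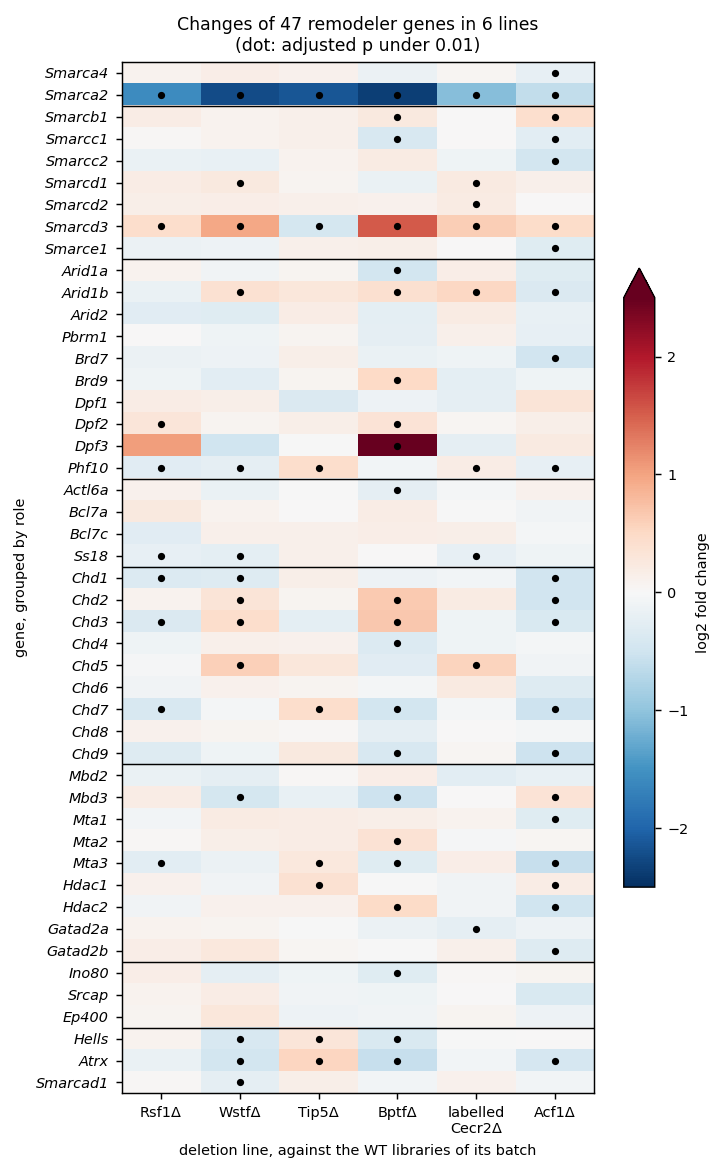
Log2 fold change of the 47 tested remodeler genes (top to bottom, grouped by role) in the 6 lines (left to right) against the WT of each batch. Dots mark edgeR adjusted p under 0.01; colour ends at 2.5, so Dpf3 in BptfΔ (2.62) is drawn at the limit, and Smarca2 is the gene that is blue with a dot in all 6 lines.

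The share of members called was near that of all genes in most lines. In Rsf1Δ 9 members were called (19.1%, 2 higher and 7 lower), against 20.6% of all genes tested. In WstfΔ 14 were called (29.8%, 6 higher and 8 lower), against 34.7%. In the Cecr2Δ-labelled libraries 9 were called (19.1%, 6 higher and 3 lower), against 18.4%, and in BptfΔ 22 (46.8%, 10 higher and 12 lower), against 41.6%. Member shares lay above the background in Tip5Δ, with 8 calls (17.0%, 6 higher and 2 lower) against 9.07%, and in Acf1Δ, with 22 calls (46.8%, 4 higher and 18 lower) against 31.8%. By direction, 15.1% of all genes were called higher and 16.7% lower in Acf1Δ and 2.84% higher and 6.23% lower in Tip5Δ. These shares were 7.45% and 13.1% in Rsf1Δ, 16.4% and 18.3% in WstfΔ, 21.4% and 20.2% in BptfΔ, and 9.52% and 8.83% in the Cecr2Δ-labelled libraries. The median log2 fold change of the members was -0.19 in Acf1Δ and 0.11 in Tip5Δ, and lay between -0.09 and 0.06 in the other lines, while that of all genes was between -0.03 and 0.01 in every line.

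These counts moved when single libraries were left out, as did those of all genes. Without WT A replicate 2, 2 members were called in Rsf1Δ (13.8% of all genes in the same fit), and without either Rsf1Δ replicate 4 (13.6% and 13.3%). In WstfΔ 9 were called without either WT A replicate (26.9% and 26.6% of all genes) and 7 without WstfΔ replicate 2 (24.1%). In Tip5Δ the count was 5 without Tip5Δ replicate 1 (4.86%) and 4 without Tip5Δ replicate 2 (5.08%) or either WT B replicate (5.65% and 5.25%). In BptfΔ it was 14 without BptfΔ replicate 1 (31.9%). In Acf1Δ it was 10 without Acf1Δ replicate 2 (22.1%) and 25 without Acf1Δ replicate 1 (29.9%). Thus without Acf1Δ replicate 2 the member share of 21.3% was no longer above that of all genes, and without BptfΔ replicate 1 it was 29.8%, below that of all genes. In Tip5Δ the member share stayed above that of all genes without each single library (8.51% to 10.6%). Fitted with the libraries of its own batch alone, the count was 23 of 46 in WstfΔ (50%, against 45.6% of all genes), 24 of 46 in Tip5Δ (52.2% against 24.6%) and 11 of 46 in Acf1Δ (23.9% against 16.9%). With DESeq2 size factors 3 of 8 calls in Rsf1Δ were higher and 5 lower, where 1278 of 15682 genes were called higher and 1980 lower. Libraries of line and WT did not overlap for 35 members in Rsf1Δ, 40 in WstfΔ, 39 in Tip5Δ, 41 in BptfΔ, 19 in those labelled Cecr2Δ and 29 in Acf1Δ, of 47 each. The same held for 67.1%, 76.9%, 63.3%, 79.9%, 38.3% and 63.2% of all genes in that order.

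**Figure D3:**
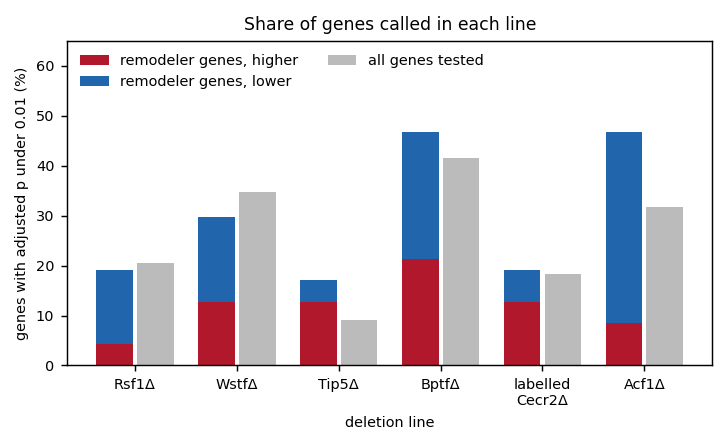
Percent of genes with edgeR adjusted p under 0.01 in each line, for the 47 remodeler genes (red higher, blue lower, stacked) and all 15682 genes tested (grey). Remodeler genes reach 46.8% in Acf1Δ against 31.8% of all genes, and 17.0% in Tip5Δ against 9.07%.

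Median changes of members with wide genes lay below those of the other members in Acf1Δ, Rsf1Δ and BptfΔ and above them in WstfΔ. The 24 tested members with a width of at least 7205 bases (the median of the 47) had a median log2 fold change of -0.25 in Acf1Δ and the other 23 had -0.10, although the 18 lower calls split evenly, with 9 in each (37.5% and 39.1%). Of all genes, 28.5% of the wide ones and 14.1% of the others were called lower in Acf1Δ. Over all genes these medians were -0.17 for 2851 genes at least that wide and 0.01 for the other 12831. Within the Acf1Δ pair, 31 of 47 members were lower in replicate 2, with a median log2 ratio of replicate 2 to replicate 1 of -0.32 for the wide members and 0.04 for the others. In Rsf1Δ the wide members had a median log2 fold change of -0.06 and the others 0.09, against medians of -0.07 and 0.01 over all genes. Of its 7 lower calls 5 were in wide members (20.8% of the wide and 8.70% of the others), where 17.4% of the wide and 12.2% of the other genes were called lower among all genes. In the WT pair of batch A the median log2 ratio of replicate 2 to replicate 1 was 0.15 for the wide members and 0.003 for the others. The part of gene width and of these libraries in the lower levels was not tested further.

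Smarca2, which encodes the alternative SWI/SNF ATPase BRM, fell in all 6 lines, to between 0.197 and 0.650 times the WT level. It lies on chromosome 19 from 26605073 to 26778321 (gene ID 67155). In batch A, Smarca2 was at 13.2 and 14.6 normalized CPM in WT, at 4.6 and 4.76 in Rsf1Δ and at 2.67 and 3.22 in WstfΔ. In batch B it was at 10.9 and 11.4 in WT and at 2.06 and 3.0 in Tip5Δ, and in batch C at 6.40 and 6.19 in WT and at 1.32 and 1.16 in BptfΔ. Every deletion library was below every WT library of its batch. In batch D Smarca2 was at 4.07, 4.23 and 4.5 in WT and at 1.78, 1.87 and 2.40 in the Cecr2Δ-labelled libraries. In batch E it was at 9.14 and 9.96 in WT and at 6.12 and 6.28 in Acf1Δ. The Acf1Δ values were thus higher than those of WT in batch D.

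The log2 fold changes of Smarca2 were -1.57 ± 0.13 in Rsf1Δ (standard error, edgeR adjusted p = 5.67e-10), -2.24 ± 0.16 in WstfΔ (1.17e-11) and -2.13 ± 0.15 in Tip5Δ (2.36e-11). In BptfΔ the log2 fold change was -2.35 ± 0.21 (edgeR adjusted p = 3.72e-10), in the Cecr2Δ-labelled libraries -1.07 ± 0.13 (5.34e-07) and in Acf1Δ -0.62 ± 0.13 (3.73e-04). All 6 calls held without each single library. Calls in all 6 lines in either direction were made for 1.08% of all genes tested, and a call of lower expression in all 6 was found for 67 of 15682 genes (0.427%). The size of the fall differed between lines. Set against the mean effect of the other 5 lines, it was smaller in Acf1Δ (difference 1.25) and in the Cecr2Δ-labelled libraries (0.71), and larger in BptfΔ (-0.82) and WstfΔ (-0.69). Rsf1Δ (0.11) and Tip5Δ (-0.56) did not pass this test (edgeR adjusted p = 0.628 and 0.0184). The same test called 34.1% of all genes in Acf1Δ, 21.2% in the Cecr2Δ-labelled libraries, 34.2% in BptfΔ, 27.3% in WstfΔ, 16.8% in Rsf1Δ and 15.9% in Tip5Δ. Without a batch term, the Smarca2 calls were lost in Rsf1Δ (log2 fold change -0.88, adjusted p = 0.263), Acf1Δ (-0.47, 0.499), Tip5Δ (-1.76, 0.0208) and WstfΔ (-1.54, 0.0198), while in the Cecr2Δ-labelled libraries the fall was larger (-2.09) and still called, as in BptfΔ (-2.79).

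Markers of primitive endoderm, the extraembryonic lineage that serum cultures of mESCs can contain, moved with Smarca2 in most lines. All 7 genes of that list were lower in Rsf1Δ, WstfΔ, Tip5Δ, BptfΔ and the Cecr2Δ-labelled libraries, whereas 3 were higher and 1 lower in Acf1Δ. Their summed level was 330 to 338 normalized CPM in WT of batch A, 139 to 147 in Rsf1Δ and 133 to 139 in WstfΔ. It was 333 to 353 in WT and 73.1 to 80.2 in Tip5Δ in batch B, 145 to 153 in WT and 13.9 to 14.4 in BptfΔ in batch C, and 101 to 117 in WT and 29.5 to 34.1 in the Cecr2Δ-labelled libraries in batch D. In Acf1Δ the sum was 269 to 306 against 242 to 249 in WT, so there Smarca2 was lower where the marker sum was higher. Fibroblast markers did fall in Acf1Δ, with 2 of 4 tested called lower and a sum over 6 genes of 15.2 to 15.6 normalized CPM against 25.4 to 26.3 in WT, and 3 of 6 neural markers were called lower too. In the other lines 1 or 2 of the 4 fibroblast markers were called lower, and the sum lay below WT in each of them except WstfΔ, where 1 marker was called higher and the sum of 20.9 to 25.4 overlapped that of WT (19.9 to 21.2). Of the 6 fibroblast markers 5 were detected in WT and in Acf1Δ of batch E and Lum was at 0 in both, while no primitive endoderm marker was at 0 in any group. The WT batches with the lowest marker sums, C and D, also had the lowest Smarca2. The part of any of these cells in the Smarca2 result was not tested, and in bulk RNA fewer cells of a type cannot be told apart from less RNA per cell.

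**Figure D4:**
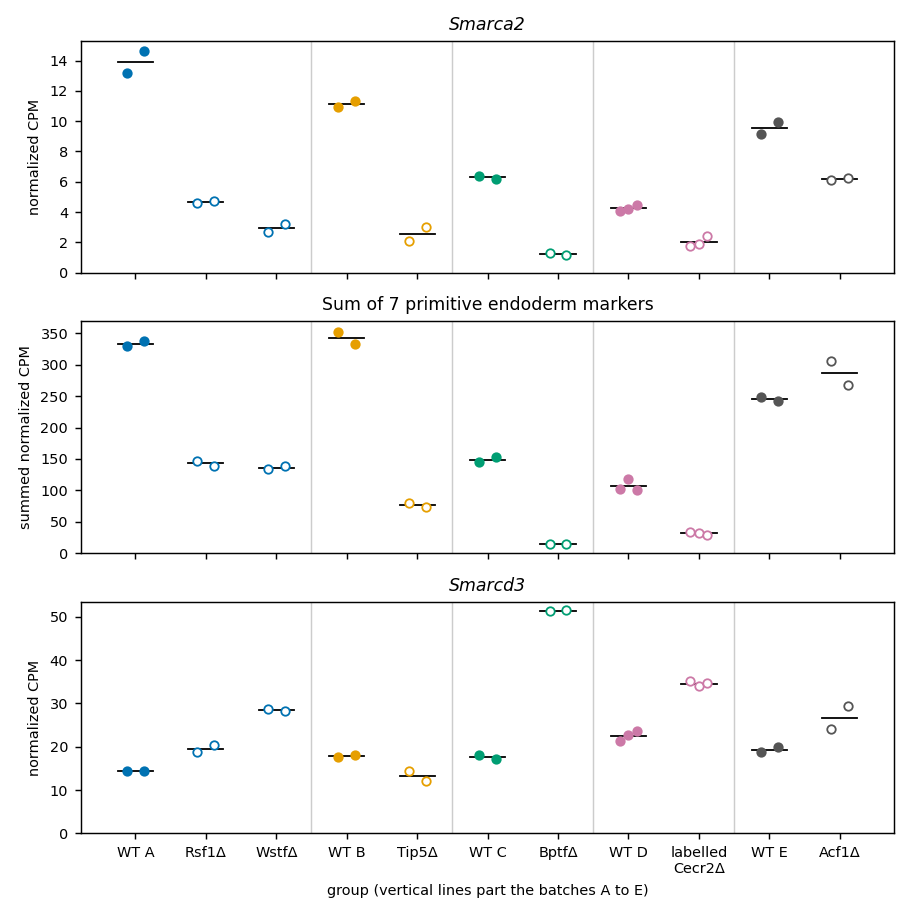
Normalized CPM per library of Smarca2 (top), of 7 summed primitive endoderm markers (middle) and of Smarcd3 (bottom) in each group (filled circles WT, open circles deletion lines, bars means, colours batches). Smarca2 is lower than WT in all 6 lines, the marker sum in 5, and Smarcd3 is higher in 5 and lower in Tip5Δ.

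Smarca4, the main SWI/SNF ATPase gene (chromosome 9 from 21616106 to 21704230, gene ID 20586), changed little. It ranged from 333 to 417 normalized CPM over the 11 WT libraries and from 331 to 429 over the 13 others. It was called in Acf1Δ alone, at 375 and 331 normalized CPM against 393 and 417 in WT (log2 fold change -0.20 ± 0.06, edgeR adjusted p = 0.00690). This call was lost without WT E replicate 2 or Acf1Δ replicate 2 (adjusted p 0.0661 to 0.171). Smarca2 held between 0.23% and 1.11% of the per-kilobase sum of both ATPase genes in the lines, against 0.67% to 2.38% in their WT.

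Smarcd3, which encodes the BAF60c subunit best known from heart and muscle, was higher in 5 lines and lower in Tip5Δ. Its level in batch A was 14.5 and 14.5 normalized CPM in WT, 18.9 and 20.3 in Rsf1Δ and 28.7 and 28.2 in WstfΔ. In batch B Smarcd3 was at 17.6 and 18.1 in WT and at 14.4 and 12.0 in Tip5Δ, and in batch C at 18.2 and 17.1 in WT and at 51.4 and 51.5 in BptfΔ. No library of a line overlapped its WT. In batch D Smarcd3 was at 21.4, 22.7 and 23.7 in WT and at 35.3, 33.9 and 34.6 in the Cecr2Δ-labelled libraries, and in batch E at 18.8 and 19.9 in WT and at 24 and 29.4 in Acf1Δ.

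The Smarcd3 log2 fold changes were 1.54 ± 0.09 in BptfΔ (standard error, edgeR adjusted p = 1.57e-13), 0.97 ± 0.10 in WstfΔ (6.67e-09), 0.62 ± 0.07 in the Cecr2Δ-labelled libraries (9.83e-08), 0.47 ± 0.09 in Acf1Δ (1.40e-04), 0.44 ± 0.10 in Rsf1Δ (9.38e-04) and -0.43 ± 0.10 in Tip5Δ (0.00259). A call of higher expression in at least 5 lines was found for 0.402% of all genes tested. Against the mean of the other 5 lines, the BptfΔ change was larger by 1.13 and the WstfΔ change by 0.45, and the Tip5Δ change was lower by 1.24 (difference -1.24). Smarcd3 rose from 6.22% to 16.9% of the BAF60 sum in BptfΔ. The 3 calls in BptfΔ, WstfΔ and the Cecr2Δ-labelled libraries held without each single library. The Rsf1Δ call was lost without either WT A replicate or Rsf1Δ replicate 2 (adjusted p 0.0104 to 0.0214). The Tip5Δ call was lost without either WT B replicate or Tip5Δ replicate 2 (0.0139 to 0.114), and the Acf1Δ call without Acf1Δ replicate 2 (0.0128). Without a batch term these 3 calls were lost too, in Rsf1Δ (log2 fold change 0.06, adjusted p = 0.865), Tip5Δ (-0.50, 0.0522) and Acf1Δ (0.51, 0.0297).

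Smarcd3 (gene ID 66993) shares 642 of its 1944 exon bases in GENCODE (33.0%) with Chpf2, a gene for a chondroitin sulfate enzyme on the opposite strand, and the library kit named in the study's methods (TruSeq RNA Library Prep Kit v2) does not mark strand. Chpf2 was higher in BptfΔ (log2 fold change 1.05), Acf1Δ (0.55) and the Cecr2Δ-labelled libraries (0.39), and lower in Tip5Δ (-0.45). In WstfΔ (0.24) and Rsf1Δ (-0.08) it was not called, with edgeR adjusted p of 0.0336 and 0.517. Reads of the shared bases cannot be assigned to either gene, and their part in the Smarcd3 result was not tested. The deposited width of Smarcd3 is 4753 bases, so the shared part of the counted model may differ from 33.0%.

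**Figure D5:**
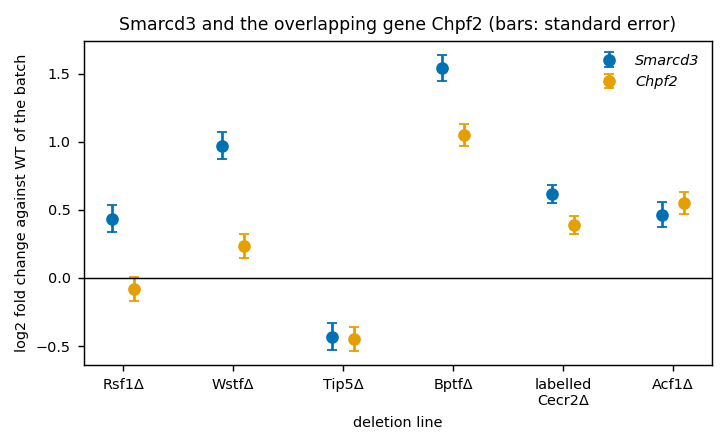
Log2 fold change with its standard error of Smarcd3 (blue) and the overlapping opposite-strand gene Chpf2 (orange) in the 6 lines. The genes move by like amounts in Tip5Δ and Acf1Δ, while in WstfΔ Smarcd3 is at 0.97 and Chpf2 at 0.24.

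The other core subunits moved by less than 2-fold. Smarcb1 (SNF5, also called BAF47) was at 131 and 136 normalized CPM in WT of batch E and at 177 and 181 in Acf1Δ, a log2 fold change of 0.42 ± 0.05 (edgeR adjusted p = 8.11e-07) that held without each library. It also rose in BptfΔ by 0.25 on the log2 scale, a call lost without BptfΔ replicate 1 (adjusted p = 0.0114). The scaffold gene Smarcc1 fell in BptfΔ (-0.40, held without each library) and in Acf1Δ (-0.27, lost without WT E replicate 1 or Acf1Δ replicate 2, adjusted p 0.0163 to 0.0352). Its paralogue Smarcc2 fell in Acf1Δ (-0.46). Smarce1, the HMG-box subunit gene BAF57, fell in Acf1Δ too (-0.31, lost without WT E replicate 1 or Acf1Δ replicate 1, adjusted p 0.0151 to 0.0797). In Acf1Δ the SWI/SNF core therefore had 2 members called higher and 3 lower of 7, where 15.1% of all genes were called higher and 16.7% lower. The other BAF60 genes gave small calls that single libraries decided, with Smarcd1 higher in WstfΔ (0.25) and the Cecr2Δ-labelled libraries (0.22) and Smarcd2 higher in the latter (0.20). These 3 calls had adjusted p up to 0.0530, 0.0344 and 0.0261 when 1 library was left out.

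Of the 10 genes whose products define the BAF, PBAF or noncanonical BAF form, Arid1b and Phf10 were called most often. Arid1b, the ARID1 paralogue, was at 44.6, 53.4 and 46.0 normalized CPM in WT of batch D and at 66.7, 69.6 and 69 in the Cecr2Δ-labelled libraries. These groups did not overlap, and the log2 fold change was 0.51 ± 0.07 (edgeR adjusted p = 3.88e-06), held without each library. Arid1b also rose in WstfΔ (0.39, lost without WT A replicate 1 or WstfΔ replicate 2, adjusted p 0.0160 to 0.0191) and BptfΔ (0.40, lost without BptfΔ replicate 1, 0.0160). It fell in Acf1Δ (-0.37, lost without WT E replicate 2 or Acf1Δ replicate 2, 0.0405 to 0.0832). Arid1a fell in BptfΔ (-0.46), and that call was lost without WT C replicate 2 or either BptfΔ replicate (0.0242 to 0.118).

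Phf10 (BAF45a), a PBAF subunit gene with PHD fingers, lies on chromosome 17 from 14944994 to 14961260. It was at 148 and 143 normalized CPM in WT of batch B and at 202 and 194 in Tip5Δ, a log2 fold change of 0.44 ± 0.06 (edgeR adjusted p = 2.25e-06). Both Tip5Δ libraries lay above both of WT, and the Tip5Δ change was 0.56 above the mean of the other 5 lines. In Rsf1Δ Phf10 fell, at 87.0 and 88.3 normalized CPM against 106 and 109 (-0.29, adjusted p = 4.09e-04). The Tip5Δ and Rsf1Δ calls held without each library, whereas smaller changes in WstfΔ (-0.23), Acf1Δ (-0.20) and the Cecr2Δ-labelled libraries (0.18) were lost on leaving out some libraries, with adjusted p up to 0.0309, 0.139 and 0.0381. An opposite-strand gene shares 10.6% of the exon bases of Phf10 in GENCODE, so reads of that stretch are uncertain.

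The related subunit gene Dpf2 (BAF45d) was at 107 and 105 normalized CPM in WT of batch A and at 130 and 130 in Rsf1Δ. Dpf2 changed on the log2 scale by 0.29 ± 0.06 (edgeR adjusted p = 6.57e-04), a call lost without WT A replicate 2 (0.0127). Dpf2 also rose in BptfΔ (0.34), where Brd9, a subunit gene of noncanonical BAF, rose by 0.50 and both held without each library. Dpf3, a BAF45 gene tied to heart and muscle in other settings, was close to the limit of detection. It had 3 and 1 counts in WT of batch C and 13 and 11 in BptfΔ. The ratio of its normalized summed counts was 6.38, with an exact 95% counting interval of 2.19 to 25.3 that covers counting error only, and the edgeR adjusted p was 0.00847. That call was lost with DESeq2 (adjusted p = 0.0128) and on leaving out any of the 4 libraries (WT C replicate 1 or 2, BptfΔ replicate 1 or 2). In those 4 fits the log2 fold change of Dpf3 lay between 2.13 and 3.49, against 2.62 with all libraries. Without a batch term it was 1.28 and not called (edgeR adjusted p = 0.0825). Brd7 fell in Acf1Δ (-0.49, held without each library), and Arid2, Pbrm1 and Dpf1 were called in no line.

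Among actin-related and accessory SWI/SNF subunits, Ss18 was lower in 3 lines. It was at 170, 165 and 165 normalized CPM in WT of batch D and at 141, 147 and 148 in the Cecr2Δ-labelled libraries, a log2 fold change of -0.20 ± 0.05 (edgeR adjusted p = 0.00140) lost without Cecr2Δ-labelled replicate 1 (0.0134). Its other calls, in Rsf1Δ (-0.20) and WstfΔ (-0.25), were also lost without single libraries, with adjusted p up to 0.126 and of 0.0170 without WstfΔ replicate 2. Actl6a (BAF53a), which shares 19.5% of its exon bases with the opposite-strand gene Mrpl47, fell in BptfΔ (-0.23). Bcl7a and Bcl7c were called in no line.

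The 9 CHD ATPase genes include Chd4, the NuRD ATPase, Chd1 and Chd2, linked to transcribed genes, and Chd7, known for its part in CHARGE syndrome. In Acf1Δ 5 of them were called, each lower, where 31.8% of all genes were called and 16.7% lower, and 3 of these calls (Chd3, Chd7 and Chd9) were lost without single libraries. In BptfΔ 5 were called, with 2 higher and 3 lower, where 41.6% of all genes were. Chd4 was at 1014 and 1039 normalized CPM in WT of batch C and at 808 and 805 in BptfΔ, a log2 fold change of -0.35 ± 0.07 (edgeR adjusted p = 1.29e-04). That call held without each library, and Chd4 was called in no other line. Over the other WT libraries Chd4 ranged from 657 to 917.

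Chd3, which encodes an alternative NuRD ATPase (chromosome 11 from 69343273 to 69369499), moved in opposite directions between lines. In batch A it was at 40.6 and 44.8 normalized CPM in WT, at 57.9 and 57.9 in WstfΔ and at 33.3 and 33.3 in Rsf1Δ, and in batch C at 40.9 and 42.7 in WT and at 66.1 and 66.4 in BptfΔ. It was above WT in WstfΔ and BptfΔ and below WT in Rsf1Δ, without overlap. The log2 fold changes were 0.67 ± 0.09 in BptfΔ (edgeR adjusted p = 5.38e-07), 0.44 ± 0.09 in WstfΔ (2.16e-04) and -0.36 ± 0.09 in Rsf1Δ (0.00278). Against the mean of the other 5 lines the differences were 0.80, 0.53 and -0.43. The BptfΔ and WstfΔ calls held without each library. The Rsf1Δ call was lost without WT A replicate 2 or either Rsf1Δ replicate (adjusted p 0.0228 to 0.0599), and a fall in Acf1Δ (-0.38) was lost without WT E replicate 2 or Acf1Δ replicate 2 (0.0180 to 0.0447).

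Chd5, the third member of that subfamily and best known from neurons, lies on chromosome 4 from 152338646 to 152390194. It was at 11.8 and 12.8 normalized CPM in WT of batch A and at 18.4 and 18.7 in WstfΔ, and at 10.9, 12.1 and 10.6 in WT of batch D and 15.3, 16.9 and 16.9 in the Cecr2Δ-labelled libraries. Both increases were without overlap and held without each library. The log2 fold changes of Chd5 were 0.60 ± 0.11 (edgeR adjusted p = 8.49e-05) and 0.55 ± 0.08 (1.03e-05). Without a batch term both calls were lost, with log2 fold changes of 0.50 and 0.32 (edgeR adjusted p = 0.0338 and 0.118). Of 6 neural markers tested, 1 was called higher in each of these lines and 3 were lower in WstfΔ. The sum over 9 neural markers was 85.3 to 90.7 normalized CPM in WstfΔ against 152 to 161 in WT, and 119 to 133 in the Cecr2Δ-labelled libraries against 95.4 to 107 in WT, so there it was higher without overlap. The part of such cells in the Chd5 result was not tested.

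Chd2 was at 139 and 153 normalized CPM in WT of batch C and at 225 and 235 in BptfΔ, a log2 fold change of 0.66 ± 0.09 (edgeR adjusted p = 1.01e-06). It fell in Acf1Δ (-0.48), and both calls held without each library. A smaller rise in WstfΔ (0.32) was lost without WT A replicate 1 or either WstfΔ replicate (0.0254 to 0.192). An annotated transcript on the same strand shares 6.75% of its exon bases. Chd1 fell in Acf1Δ (-0.48, held without each library), and falls in Rsf1Δ (-0.34) and WstfΔ (-0.32) were lost without WT A replicate 2, among others (adjusted p up to 0.0204 and 0.0246).

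Chd7 was the CHD gene whose calls depended most on single libraries. In Tip5Δ it was at 108 and 114 normalized CPM against 83.7 and 80.4 in WT (log2 fold change 0.43 ± 0.11, edgeR adjusted p = 0.00871), and in Rsf1Δ at 67.6 and 77.0 against 83.7 and 108 (-0.40 ± 0.12, 0.00855). In Acf1Δ it was at 69.8 and 52.1 against 77.0 and 97.9 (-0.52 ± 0.12, 6.61e-04), and it fell in BptfΔ by 0.46 on the log2 scale. The WT libraries of batches A and E were themselves far apart here. The Tip5Δ call was lost without any of the 4 libraries of batch B (WT B replicate 1 or 2, Tip5Δ replicate 1 or 2, adjusted p 0.0343 to 0.0885). The Rsf1Δ call was lost without WT A replicate 2 or either Rsf1Δ replicate (0.0128 to 0.279), and the Acf1Δ call without WT E replicate 2 or Acf1Δ replicate 2 (0.0372 to 0.0415). The BptfΔ call was lost without WT C replicate 2 or either BptfΔ replicate (0.0133 to 0.0291). Chd9 fell in BptfΔ (-0.41, lost without the same 3 libraries, 0.0265 to 0.0940) and in Acf1Δ (-0.51, lost without WT E replicate 2 or Acf1Δ replicate 2, 0.0261 to 0.0603). Chd6 and Chd8 were called in no line.

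Among NuRD subunits other than the CHD genes, Mbd3, needed for NuRD assembly in mESCs, changed in 3 lines. It lies on chromosome 10 from 80392539 to 80399531. Mbd3 was at 153 and 152 normalized CPM in WT of batch A and at 114 and 112 in WstfΔ, and at 90.3 and 84.7 in WT of batch C and 59.9 and 62.7 in BptfΔ. In both lines all libraries lay below WT. In batch E it was at 116 and 129 in WT and at 148 and 163 in Acf1Δ, above WT. The log2 fold changes were -0.43 ± 0.09 in WstfΔ (edgeR adjusted p = 1.59e-04), -0.51 ± 0.09 in BptfΔ (2.73e-05) and 0.34 ± 0.08 in Acf1Δ (0.00152). Without a batch term Mbd3 was at -1.15 in BptfΔ and still called. In that model the WstfΔ (-0.27) and Acf1Δ (0.19) calls were lost (edgeR adjusted p = 0.401 and 0.604). The WstfΔ and BptfΔ calls held without each library, and the Acf1Δ call was lost without WT E replicate 1 or Acf1Δ replicate 2 (0.0284 to 0.0426) and with the libraries of batch E alone (0.0180).

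Mta3, an MTA subunit gene, was at 242 and 208 normalized CPM in WT of batch E and at 143 and 158 in Acf1Δ, a log2 fold change of -0.58 ± 0.07 (edgeR adjusted p = 2.06e-07) that held without each library. It also fell in BptfΔ (-0.31, lost without WT C replicate 1 or BptfΔ replicate 1, 0.0125 to 0.0147) and in Rsf1Δ (-0.26) and rose in Tip5Δ (0.26). The last 2 calls were lost without any of the 4 libraries of their comparison, with adjusted p up to 0.0795 and 0.0718. Mta2 rose in BptfΔ (0.36) and Mta1 fell in Acf1Δ (-0.30), both held without each library.

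The deacetylase gene Hdac2 rose in BptfΔ (0.48) and fell in Acf1Δ (-0.50), and its paralogue Hdac1 rose in Tip5Δ (0.37). These 3 calls held without each library. A small rise of Hdac1 in Acf1Δ (0.19) was lost without either WT E replicate or Acf1Δ replicate 2 (adjusted p 0.0230 to 0.0457). Gatad2a, the main GATAD2 gene, was at 252, 279 and 263 normalized CPM in WT of batch D and at 238, 224 and 220 in the Cecr2Δ-labelled libraries. The groups did not overlap, and the log2 fold change was -0.22 ± 0.05 (edgeR adjusted p = 0.00102), lost without Cecr2Δ-labelled replicate 3 (0.0103). Gatad2b fell in Acf1Δ (-0.32, lost without WT E replicate 1 or Acf1Δ replicate 2, 0.0268 to 0.150), and Mbd2 was called in no line.

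The ATPases of INO80, SRCAP and EP400, which exchange histone variants or act at promoters, gave few calls. Of the 18 comparisons of Ino80, Srcap and Ep400, 1 was called, a fall of Ino80 in BptfΔ (-0.30), which was lost without WT C replicate 2 or either BptfΔ replicate (adjusted p 0.0108 to 0.0205). Over all genes the share called was between 9.07% in Tip5Δ and 41.6% in BptfΔ, so 3 genes allow no reading of the group.

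Of the remaining SNF2-family ATPase genes, Atrx and Hells were called in opposite directions between lines, and Smarcad1 was called in 1 line. Atrx, on chromosome X from 105797615 to 105929372, encodes a remodeler that deposits histone H3.3 with DAXX in heterochromatin. It was at 394 and 402 normalized CPM in WT of batch B and at 574 and 572 in Tip5Δ. In batch A Atrx was at 429 and 497 in WT and at 338 and 333 in WstfΔ, and in batch C at 562 and 626 in WT and at 409 and 385 in BptfΔ. Atrx was thus above WT in Tip5Δ and below WT in WstfΔ and BptfΔ, without overlap. The log2 fold changes were 0.53 ± 0.10 in Tip5Δ (edgeR adjusted p = 2.40e-04), -0.46 ± 0.10 in WstfΔ (3.10e-04) and -0.58 ± 0.10 in BptfΔ (1.43e-05). The differences from the mean of the other 5 lines were 0.87, -0.32 and -0.46. The WstfΔ call was lost without WT A replicate 2 (0.0164), and a fall in Acf1Δ (-0.42) was lost without Acf1Δ replicate 2 (0.0727).

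Hells, whose product LSH is needed for normal DNA methylation, moved the same way as Atrx in these 3 lines, with log2 fold changes of 0.30 in Tip5Δ, -0.39 in WstfΔ and -0.38 in BptfΔ. The WstfΔ and BptfΔ calls held without each library, and the Tip5Δ call was lost without any of its 4 libraries (adjusted p 0.0144 to 0.0416). Smarcad1, an ATPase with a part in heterochromatin restoration after replication, fell in WstfΔ (-0.22) alone, a call lost without any of its 4 libraries (0.0185 to 0.0406).

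In all, 2 members were called in 6 lines, 13 in at least 3, 16 in 1 and 10 in no line, of 47. Of all genes tested, 24.2% were called in at least 3 lines, 26.3% in 1 and 29.3% in no line. For comparison, 54 further subunits and SNF2-family genes outside the list were counted. Of these 7 were called in Rsf1Δ (13.0%, against 20.6% of all genes), 15 in WstfΔ (27.8% against 34.7%), 23 in BptfΔ (42.6% against 41.6%), 7 in the Cecr2Δ-labelled libraries (13.0% against 18.4%) and 16 in Acf1Δ (29.6% against 31.8%). In Tip5Δ 0 were called by edgeR (9.07% of all genes), with 14 at an unadjusted p under 0.05 and 2 called by DESeq2. Past 2-fold as well, these were Ruvbl1, a helicase gene shared by INO80 and TIP60, in BptfΔ (log2 fold change -1.33) and Ing3, a TIP60 subunit gene, in Acf1Δ (-1.15).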

How the data were processed

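RNA was measured by sequencing in 24 mESC libraries of 5 batches. The authors used QuasR for spliced alignment to mm10 (HISAT2 per the labels) and deposited raw, unnormalized counts for genes in UCSC knownGene models. The library kit named in the methods does not mark strand. How overlapping genes and reads with several matches were counted is not given in the sources used here. The same deposited table holds a width in bases for each gene. Groups, batches and replicate numbers came from the sample labels, and gene IDs were joined to RefSeq GRCm38.p6, which held 24570 of 24594.

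Genes were filtered in edgeR 4.0.16 (R 4.3.3), which kept 15682 genes (filterByExpr by genotype). TMM scaling was applied, followed by a quasi-likelihood model (legacy form) with batch and genotype terms over all 24 libraries. P-values were adjusted by Benjamini-Hochberg over all genes tested. A gene was called at an adjusted p under 0.01, and limits of 2-fold were applied as an absolute log2 fold change over 1. Standard errors were derived from the F statistic as the size of the log2 change over sqrt(F). The contrast of a line with the mean of the other 5 lines came from the same fit. Per-kilobase levels divide normalized CPM by the deposited width. Exon overlaps used GENCODE gene models of GRCm38, and promoter sequences came from RefSeq. For these overlaps, transcripts of coding genes marked as retained intron, nonsense-mediated decay or processed transcript were left out. The overlap shares therefore need not match those of the counted knownGene models. Tables and plots were made with Python 3.11.15 and pandas 2.3.3. The fit was tested on simulated counts with known changes.

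Values in every library, or their range, were given for members called past 2-fold in any line, for the 3 largest increases and 3 largest decreases called in each line among members with a mean of at least 10 counts, and for Smarca4 and Chd4. Members at or under 3 counts in every library would also have been named, but there were none. Other members are given by fold change. The members, the further gene lists and these rules were chosen with earlier results of these data known. Alternatives were library size alone, DESeq2 size factors, edgeR's newer fit, DESeq2 1.42.0, other filters, no batch term, the line's own batch alone, the replicate number as a block, and each library left out. Leaving out batch C, the alternatives for the contrast between lines, the split by gene width, the histone gene sum and the counting interval were added after seeing the data.

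Chi-square per gene between replicates ranged from 1.38 to 20.4 over 15 pairs, so all 24 libraries were used as separate samples. At depths of 13417755 to 36721585 counts, 3 counts correspond to 0.084 to 0.22 normalized CPM.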

Additional observations from a re-analysis of the deposited data

Results flagged for a closer look

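Changes of the named members differed between lines in 26 of 35 comparisons, tested as the effect of a line minus the mean effect of the other 5 lines (edgeR adjusted p under 0.01). All values here are such differences on the log2 scale. Over all genes this test called between 15.9% of genes in Tip5Δ and 34.2% in BptfΔ, and the 35 comparisons had been picked for the size of the line effect.

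Smarca2 differed in 4 lines, by 1.25 in Acf1Δ and 0.71 in the Cecr2Δ-labelled libraries, where it fell less, and by -0.82 in BptfΔ and -0.69 in WstfΔ, where it fell more. Smarcd3 differed by 1.13 in BptfΔ, 0.45 in WstfΔ and -1.24 in Tip5Δ, the 1 line in which it was lower than WT. Among subunits of SWI/SNF, Phf10 stood apart in Tip5Δ (0.56), Arid1b in the Cecr2Δ-labelled libraries (0.40) and Smarcb1 in Acf1Δ (0.29).

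Among the CHD genes, Chd3 was at 0.80 in BptfΔ, 0.53 in WstfΔ and -0.43 in Rsf1Δ. Chd2 was at 0.61 in BptfΔ, Chd5 at 0.51 in WstfΔ and 0.46 in the Cecr2Δ-labelled libraries, and Chd7 at 0.73 in Tip5Δ and -0.42 in Acf1Δ. In NuRD, Mbd3 was at 0.53 in Acf1Δ, -0.50 in BptfΔ and -0.40 in WstfΔ, Mta3 at -0.52 in Acf1Δ and Gatad2a at -0.20 in the Cecr2Δ-labelled libraries. Atrx was at 0.87 in Tip5Δ, -0.46 in BptfΔ and -0.32 in WstfΔ.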

How the results depend on the processing

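None of the 35 fold changes chosen for passing 2-fold or being among the largest in a line changed sign under the settings run. Other fold changes, also some given with values per library, were not followed through every setting. Whether the share of members called lay above that of all genes did change with the setting, in Acf1Δ without replicate 2 (21.3% against 22.1%) and without the batch term, in BptfΔ without replicate 1 (29.8% against 31.9%), in WstfΔ with its own batch only (50% against 45.6%) and with no filter (37.5% against 27.6%), and in Rsf1Δ with DESeq2 (21.3% against 20.3%) and with no filter (20.8% against 17.0%). In the Cecr2Δ-labelled libraries, where both shares were alike, it changed under 7 settings, and in Tip5Δ under none of those run. The lowest member counts came without the batch term, except in BptfΔ. Without that term, 0 members were called in Rsf1Δ and 0 in Acf1Δ by edgeR (7 and 9 at an unadjusted p under 0.05). It left 1 in WstfΔ, 1 in Tip5Δ, 2 in the Cecr2Δ-labelled libraries and 15 in BptfΔ (31.9%). Calls over all genes fell as well, to 1.61% in Rsf1Δ, 2.22% in Acf1Δ, 7.65% in WstfΔ, 1.76% in Tip5Δ, 7.60% in the Cecr2Δ-labelled libraries and 31.3% in BptfΔ. Past 2-fold as well, that model gave 0 members in Rsf1Δ, 0 in WstfΔ and 0 in Tip5Δ (0, 1 and 1 at an unadjusted p under 0.05). It gave 5 in BptfΔ, and 8 in place of 26 differences from the other lines. Of 15682 genes it put 134 past both limits in Rsf1Δ, 500 in WstfΔ, 159 in Tip5Δ and 2368 in BptfΔ. With only the line's own batch 23 members were called in WstfΔ, 24 in Tip5Δ and 11 in Acf1Δ (45.6%, 24.6% and 16.9% of all genes). Without the low-count filter 14 of 48 were called in the Cecr2Δ-labelled libraries (29.2%, against 15.7% of all genes). Without batch C 2 were called past 2-fold in WstfΔ, where 1626 of 15472 genes were. The fits on 1 batch, without the filter and without batch C rest on other samples or genes by construction. Without the batch term the libraries and genes stayed the same, and each line was set against WT of all batches. The causes were not tested further.

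Leaving out 1 library gave 2 to 6 members in Rsf1Δ (13.3% to 14.5% of all genes), 7 to 10 in WstfΔ (23.8% to 26.9%), 4 to 5 in Tip5Δ (4.86% to 5.65%), 14 to 20 in BptfΔ (31.1% to 33.4%), 6 to 10 in the Cecr2Δ-labelled libraries (13.7% to 18.4%) and 10 to 25 in Acf1Δ (21.1% to 29.9%). Past 2-fold as well, 2 were called in BptfΔ without any 1 library. In the Cecr2Δ-labelled libraries 0 to 1 were called, with 0 by edgeR without Cecr2Δ-labelled replicate 1, where Smarca2 was at -0.99 and still called at an adjusted p under 0.01. Between the lines, 21 to 26 differences from the other lines were found. Each such fit rests on fewer samples, and a group left with 1 library is assumed to vary like the other groups.

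Over 13 pairs of same-numbered libraries, deviations from group means correlated between -0.067 and 0.045, so the numbers were not taken to pair libraries. With the replicate number as a block, 6 members were called in Rsf1Δ, 13 in WstfΔ and 6 in Tip5Δ (17.6%, 31.5% and 7.06% of all genes). That fit called 20 in BptfΔ, 6 in the Cecr2Δ-labelled libraries and 19 in Acf1Δ (38.3%, 15.1% and 27.8% of all genes). It gave 23 differences from the other lines. Among the 35 named changes the block lost 3 calls, Chd7 in Rsf1Δ (edgeR adjusted p = 0.0186) and Tip5Δ (0.0206) and Dpf3 in BptfΔ (0.0118), and kept 32. A filter on CPM lost 2, DESeq2 lost 1 (Dpf3, 0.0128), DESeq2 size factors 1 (Chd7 in Rsf1Δ, 0.0111), library size alone 1 (Chd7 in Tip5Δ, 0.0204) and no batch term 26, which left Smarca2 and Smarcd3 in BptfΔ and the Cecr2Δ-labelled libraries, Smarcd3 in WstfΔ, Phf10 in Tip5Δ, and Chd2, Chd3 and Mbd3 in BptfΔ. Depth limits Dpf3 and Actl6b, which had at most 21 and 5 counts in any library.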
